A study of Mus musculus with 4 samples.

Results

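The glucocorticoid receptor, the enzymes that make or remove its ligand inside the cell, and a set of genes it is known to induce were followed in freshly isolated mouse peritoneal mesothelium, the cell layer that lines the abdominal cavity. The 8 genes were taken by symbol from a table of 48425 genes and all 8 were found. They are the receptor Nr3c1, the dehydrogenases Hsd11b1 and Hsd11b2, the cofactor enzyme H6pd, and the induced genes Fkbp5, Tsc22d3, Sgk1 and Zbtb16. The last 4 were chosen by their CPM values, as targets that differ between libraries of this series, so their spread is given below as a description with no test. The samples were mesothelial cells of 4 untreated wild-type C57BL/6 mice aged 10 weeks, 1 library per animal, in a single group with no comparator. Cells came loose in the cavity during 20 min in 0.25% trypsin with EDTA at 37 °C and were sorted as CD45-, podoplanin+ and Gpm6a+. The labels give neither sex, nor hour of collection, nor batch. Each library held 4090224 to 4569578 estimated counts, and levels are counts-per-million (CPM) over the library's total. Mesothelial markers were present, with 12 of 12 above 1 CPM, as were 9 of 10 fibroblast markers, beside 24.7% of all genes.

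Glucocorticoids are steroid hormones of the adrenal cortex that enter cells and bind the receptor, which waits in the cytoplasm in a complex with heat shock proteins and then moves to the nucleus to switch genes on or off. The amount of active hormone in a cell is also set locally: Hsd11b1, with NADPH made by H6pd in the endoplasmic reticulum, turns inactive 11-dehydrocorticosterone into corticosterone, and Hsd11b2 does the reverse. Blood corticosterone follows the daily rhythm and stress, and the hormone is known to induce clock genes such as Per1 and to repress inflammatory chemokines.

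A sequence searched for beside the expression values was the palindromic response element that the receptor dimer binds, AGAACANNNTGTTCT. In the RefSeq table of start sites (GRCm38.p6), the 250 bases before the start were searched on both strands. Only 3 of 32851 windows, or 0.00913%, held this element, and 1 of the 3 was a window of Sgk1. The gene has 6 windows in that table, and the gene-level counts do not say which start was used. The window with the element is shown because Sgk1 is among the members that differ most between animals. It lies on the plus strand at chr10:21993640-21993889, the element in capitals starts 189 bases before the start site, and its letters are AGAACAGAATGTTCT. Fkbp5 has 1 window, on the minus strand at chr17:28486150-28486399. It held no such element and is shown for its CACGTG, in capitals, the letters of the E-box that clock factors bind. This hexamer was found in 6.02% of all windows, and the Sgk1 window also holds it, 246 bases before the start.
Sgk1: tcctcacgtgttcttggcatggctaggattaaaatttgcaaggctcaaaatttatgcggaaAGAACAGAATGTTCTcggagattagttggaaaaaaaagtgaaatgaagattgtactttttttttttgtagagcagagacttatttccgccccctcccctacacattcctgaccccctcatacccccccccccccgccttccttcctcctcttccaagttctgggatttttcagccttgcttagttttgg
Fkbp5: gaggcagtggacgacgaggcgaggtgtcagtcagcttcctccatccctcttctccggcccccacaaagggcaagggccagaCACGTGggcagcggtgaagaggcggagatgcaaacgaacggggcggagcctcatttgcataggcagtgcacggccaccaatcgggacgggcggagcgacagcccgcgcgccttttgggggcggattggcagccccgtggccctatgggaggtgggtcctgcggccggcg
The shorter AGAACA, a receptor half-site that also makes up each arm of the full element, was found in 16.1% of all windows. Among the members it was found in the window of H6pd, in 1 of 3 windows of Tsc22d3 and in 3 of 6 windows of Sgk1. No motif was found in the Hsd11b1 window. Windows of Nr3c1, Hsd11b2 and Zbtb16 were not used here. A match describes letters and was not tested as a site of binding. A window without a match says nothing of sites outside its 250 bases or with other letters.

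The receptor gene was expressed at a similar level in every animal. Nr3c1, which lies on chromosome 18 at 39410545 to 39519421 (GENCODE annotation of GRCm38), had 66.8, 76.1, 87.3 and 66.3 CPM in animals 1 to 4, a mean of 74.1 ± 9.89 CPM (SD, n = 4). The highest animal was 1.32 times the lowest, and of 8792 genes with a mean of at least 10 CPM, 81.8% had a range at least as wide. The quasi-likelihood test of edgeR placed it above 1 CPM (adjusted p = 7.18e-29), as was that of 24.7% of all genes in the table. The mineralocorticoid receptor gene Nr3c2, whose product binds the same hormone with higher affinity, had 3.79, 2.21, 2.92 and 4.42 CPM and also passed (edgeR, adjusted p = 0.000868). Per kb of exon, Nr3c1 was higher than Nr3c2 in 4 of 4 animals, by 4.06 ± 0.52 on the log2(CPM + 0.5) scale. The exact two-sided sign-flip permutation p was 0.13, which is the smallest that 4 animals can give.

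Set beside the other steroid receptors per length, Nr3c1 stood at 9.65 ± 1.29 CPM per kb. The estrogen receptor gene Esr1 averaged 6.30 ± 2.95 CPM per kb. The ranges of both genes over animals overlapped. In animal 3, however, where Esr1 was highest at 10.3 CPM per kb, Nr3c1 had 11.4 CPM per kb. Without division by length the order of the means was the reverse, at 86.1 CPM for Esr1 and 74.1 CPM for Nr3c1. Their order thus depends on the division by length and was not tested. Nr3c2 averaged 0.515 ± 0.15 CPM per kb and its highest animal lay below the lowest of Nr3c1 and Esr1. Pgr, the progesterone receptor gene, had no count, and the second estrogen receptor gene Esr2 had a count in animal 4 only.

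**Figure D1:**
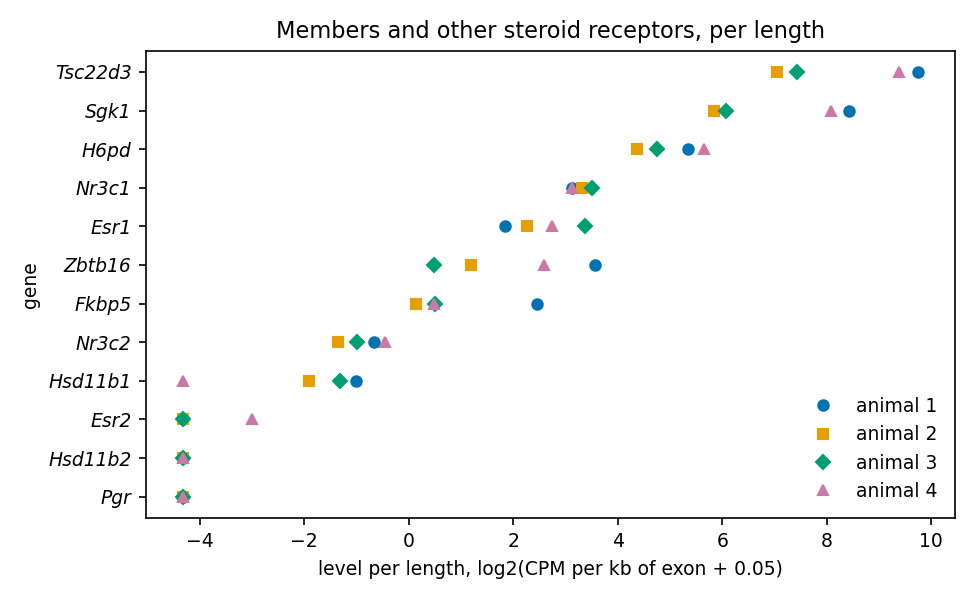
Level per length, as log2 of CPM per kb of exon plus 0.05, of the 8 members and 4 other steroid receptor genes, with 1 point per animal and genes ordered by their mean. Tsc22d3 and Sgk1 lead the order, Nr3c1 lies next to Esr1, and Hsd11b2 and Pgr have all 4 animals at 0 CPM, the left edge.

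The enzymes that act on the hormone were almost without transcripts, while the cofactor enzyme was abundant. Hsd11b1, the activating reductase, on chromosome 1 at 193221634 to 193264075, had 1.91, 0.918, 1.504 and 0 CPM in animals 1 to 4. These are 19.6 estimated counts in all, and over the 4 libraries together the level was 1.11 CPM with a 95% exact Poisson interval of 0.677 to 1.73 CPM. By edgeR's one-sided test it was not shown to lie above 1 CPM (adjusted p = 1). Hsd11b1 overlaps Lamb3 on the opposite strand, a gene with a mean of 1.57 estimated counts per library, and the sources used here do not say whether the libraries kept strand. Hsd11b2, the inactivating oxidase, on chromosome 8 at 105518755 to 105523988, had no count in any animal. The limit that a count of 0 allows, 3 counts, is 0.657 to 0.733 CPM per library and 0.171 CPM over the group. Both the interval and the limits describe counting error alone and leave out the spread between animals. They can understate counting error too, because several reads without identifiers can stem from 1 molecule.

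The point estimate of Hsd11b1 was 6.53 times that group limit of Hsd11b2 in counts and 2.83 times per kb of exon. With the lower end of the Hsd11b1 counting interval in place of the estimate, the ratios were 3.97 in counts and 1.72 per kb. These ratios pool the 4 libraries and leave out the spread between animals, so neither is a minimum difference. On the log2(CPM + 0.5) scale per kb the difference was 0.24 ± 1.01, positive in 3 of 4 animals, with p = 0.75 by the exact sign-flip permutation test. In animal 4 neither gene had a count, so its value of -1.21 is set by the 2 gene lengths alone, and the sign of the mean depends on the pseudocount. The test therefore does not separate the 2 genes, and the comparison rests on the 19.6 counts against none.

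H6pd, hexose-6-phosphate dehydrogenase, on chromosome 4 at 149979475 to 150009023, had 212, 107, 141 and 262 CPM in animals 1 to 4 and averaged 181 ± 69.8 CPM. Animals 4 and 1 were the highest, and the highest was 2.45 times the lowest, a range that 19.0% of genes of at least 10 CPM reached or exceeded. The level was above 1 CPM (edgeR, adjusted p = 1.60e-31). Per kb of exon the H6pd level was 34.5 ± 13.3 CPM, against 0.255 ± 0.195 CPM for Hsd11b1, and no animal overlapped between the genes. Slc37a4, which carries the substrate of H6pd into the endoplasmic reticulum and is named here after its values were seen, had 10.5, 10.3, 6.64 and 14.6 CPM.

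**Figure D2:**
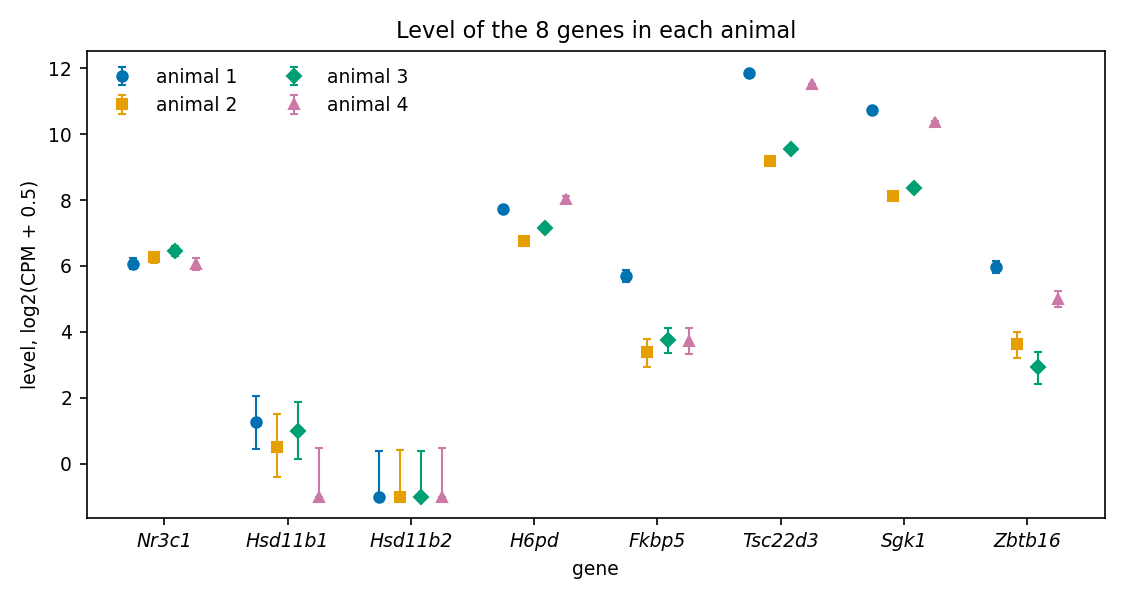
Level of each member in each animal, as log2(CPM + 0.5), with 95% exact Poisson counting intervals as bars. Nr3c1 lies within a narrow band in all 4 animals, Tsc22d3, Sgk1 and Zbtb16 are higher in animals 1 and 4 than in animals 2 and 3, and Fkbp5 is high in animal 1 alone.

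Among the induced genes, Tsc22d3 and Sgk1 were abundant and differed between animals in nearly the same proportions. Tsc22d3, which encodes the anti-inflammatory leucine zipper protein GILZ, lies on chromosome X at 140539528 to 140600659. It had 3729 CPM in animal 1 and 2916 CPM in animal 4, and 577 CPM in animal 2 and 751 CPM in animal 3. Sgk1, the serum and glucocorticoid regulated kinase, on chromosome 10 at 21882184 to 21999903, had 1693, 279, 328 and 1323 CPM in animals 1 to 4. In both genes animal 1 was the highest, animal 4 next and animal 2 the lowest. The highest over the lowest animal was 6.46 for Tsc22d3 and 6.06 for Sgk1, and the counting intervals of the high and low libraries were far apart. Among the 270 genes with a mean of at least 500 CPM, whose median range was 1.36, these were the widest and the second widest. Both were chosen for their spread and the 500 CPM cut was set for this pair alone, so these ranks are only a description. Among all 8792 genes of at least 10 CPM, 1.64% had a range at least as wide as Tsc22d3 and 1.88% at least as wide as Sgk1. The Sgk1 window printed above is therefore that of a gene chosen for its spread, and 1 gene gives no relation between element and spread.

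Zbtb16, a zinc finger repressor known as PLZF, on chromosome 9 at 48654297 to 48836222, had 62.3, 11.8, 7.12 and 31.6 CPM. Its order differed from that of Tsc22d3 and Sgk1 only in that animal 3 was below animal 2. The highest animal was 8.74 times the lowest, with a 95% exact counting interval of 6.13 to 13.2 for that ratio. Without animal 1 the ratio was 4.43 and without animal 3 it was 5.29. Since Zbtb16 is also a factor of innate-like lymphocytes, T and NK cell markers were looked at beside it. Their 10 genes summed to between 0.234 and 1.62 CPM per library, with Cd4, Cd8a and Ncr1 at 0. These listed markers were thus at or near 0 in every library, but the part of lymphocytes in the Zbtb16 values was not tested.

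Fkbp5, a cochaperone that lowers the receptor's affinity for hormone, on chromosome 17 at 28399094 to 28517527, followed another pattern. It had 51.3, 9.92, 12.9 and 12.8 CPM in animals 1 to 4. Animal 1 stood alone, and the other 3 had overlapping counting intervals, from 7.19 to 16.7 CPM. The range of 5.17 rests on that animal: without it the highest of the others was 1.30 times the lowest. In animal 4, where Tsc22d3 and Sgk1 were near their highest values, Fkbp5 was at the level of animals 2 and 3. Animal 1 was also the library with most B cell transcripts. The 7 B cell markers summed to 26.3 CPM in animal 1 and to 0.453 to 1.84 CPM in the others, led by Ighm, Igkc and Cd79a, with Blk at 0 in all, although CD45+ cells were gated out. Zbtb16 was also highest in animal 1. The part of B cells in the Fkbp5 and Zbtb16 values was not tested.

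**Figure D3:**
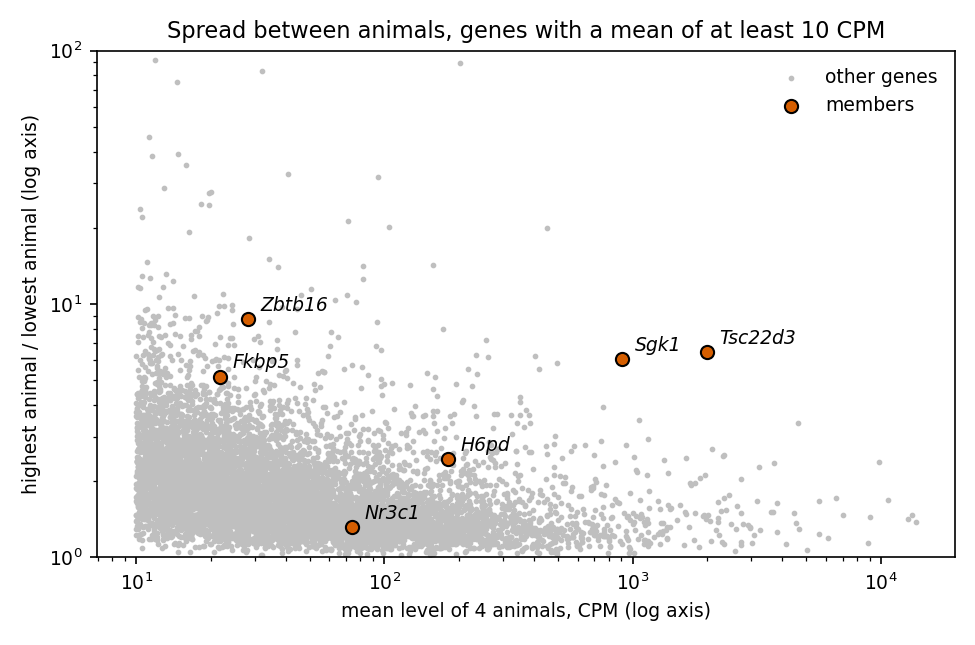
Highest over lowest animal against the mean CPM, both on log axes, for the 8792 genes with a mean of at least 10 CPM, with the 6 members that reach it marked. Another 12 genes with a ratio of 100 or more or with an animal at 0 lie outside the axis. Tsc22d3 and Sgk1, both chosen for their spread, stand above the other abundant genes, and Nr3c1 lies low.

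The range reached at least 5 in 4 of the 6 members of at least 10 CPM, the 4 that were chosen for their spread, beside 2.78% of all 8792 genes, and nothing is read from that count. In 4 of these 6 members (H6pd, Tsc22d3, Sgk1 and Zbtb16) the 2 highest values were those of animals 1 and 4, as in 17.2% of all genes of at least 10 CPM. With TMM scaling these were 5 of 6 members and 24.0% of all genes, Fkbp5 being the added member. The 4 induced members were chosen for their spread, and this split of the animals was picked after the values were seen. Nothing is therefore read from these counts of members either. The animals are not groups of the study, and the order is a description of 4 libraries.

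The genes whose profile over the 4 animals was most like each induced member were found by the root mean square distance of log2(CPM + 0.5) deviations, among 10601 genes with a mean of at least 5 CPM. Tsc22d3 and Sgk1 were each other's nearest gene, at a distance of 0.05. Socs2, an inhibitor of cytokine signalling, was next for Tsc22d3 at 0.11, with 169, 25.7, 39.5 and 153 CPM in animals 1 to 4. Aldh1a1, a retinaldehyde dehydrogenase, was near both, at 0.12 from Tsc22d3 and 0.13 from Sgk1, with 396, 71.3, 94.8 and 306 CPM. The third gene for Sgk1 was the transcript A730046J19Rik at 0.14. Nearest to Zbtb16 were 2610021A01Rik at 0.07, the lymphoid repressor Bach2 at 0.23 and Fam60a at 0.26. Fkbp5 was nearest to 6720489N17Rik at 0.16, the cation channel gene Trpc4 at 0.20 and the immediate early gene Egr2 at 0.23, each of which was highest in animal 1. A distance over 4 libraries is a description and carries no test.

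The proteins that hold and fold the receptor were all expressed. All 15 chaperone and cochaperone genes lay above 1 CPM by edgeR, beside 24.7% of all genes, the share to set beside the same count of each list below. Of these genes 1 of 15 had a range of 2 or more, beside 32.1% of all genes of at least 10 CPM. Hspa8, the constitutive Hsc70, averaged 2629 ± 556 CPM. Hsp90ab1, the main cytosolic Hsp90, averaged 952 ± 86.2 CPM, and Ptges3, the p23 cochaperone that stabilises the hormone-binding state, 799.6 ± 54.3 CPM. Fkbp4, which competes with Fkbp5 for the same Hsp90 site, had 76.5, 145, 95.2 and 103 CPM and was lowest in animal 1, the animal in which Fkbp5 was highest. Animals 2 and 3 held the 2 highest values in 7 of the 15 genes and animals 1 and 4 in 1, beside 27.4% and 17.2% of all genes of at least 10 CPM. With TMM scaling animals 2 and 3 did so in 4, beside 20.5%. Per kb of exon Fkbp4 averaged 37.5 ± 10.3 CPM (SD, n = 4), and Fkbp5 had 5.42 CPM in animal 1 and 1.05 to 1.37 CPM in the others. Without animal 1 the mean of Fkbp5, not divided by length, was 11.9 CPM, against 21.7 CPM over all 4 animals. Hspa4 had the widest range of the list, at 2.12.

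Coregulator genes were likewise present, with 13 of 13 above 1 CPM. The acetyltransferase gene Crebbp averaged 181 ± 61.1 CPM, the Mediator subunit gene Med1 172 ± 18.6 CPM and the coactivator gene Ncoa3 132 ± 34.8 CPM. The methyltransferase gene Carm1, at 5.07, 16.8, 15.2 and 9.02 CPM, and the coactivator gene Ncoa2, at 8.38, 24.8, 22.8 and 10.6 CPM, had the widest ranges of the genes counted here. Among the 12 genes of at least 10 CPM, animals 2 and 3 held the 2 highest values in 8, beside 27.4% of all genes, and animals 1 and 4 in 0, beside 17.2%. With TMM scaling these were 7 and 0, beside 20.5% and 24.0%.

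Genes for making steroid hormone from cholesterol were mostly silent. Of 15 genes of synthesis, transport and clearance 7 lay above 1 CPM. Cyp17a1, Hsd3b1, Serpina6 and Akr1d1 had no count, and Cyp11a1, Cyp21a1, Cyp11b1 and Cyp11b2 had means of 0.303 CPM or less. Star, whose product brings cholesterol into mitochondria, was the highest of the list at 188 ± 43.0 CPM, with 224, 196, 126 and 205 CPM in animals 1 to 4. The efflux pump gene Abcb1b, whose product exports corticosteroids, had 253, 95.9, 111 and 136 CPM. Its paralog Abcb1a had 32.1, 9.49, 38.8 and 34.2 CPM, and reads can be shared between this pair. Pgd, an NADPH-forming enzyme of the cytosolic pentose phosphate pathway, had 37.3, 60.7, 60.7 and 34.6 CPM. Srd5a1, a reductase of steroid clearance, had 5.42, 16.3, 10.3 and 4.05 CPM. Animals 1 and 4 were the 2 lowest for Pgd and Srd5a1. Of the 6 genes of at least 10 CPM, however, animals 1 and 4 held the 2 highest values in 3 (Star, Abcb1b and Slc37a4) and animals 2 and 3 in 1 (Pgd), beside 17.2% and 27.4% of all genes.

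Other genes that glucocorticoids are known to induce did not share one order. Of 28 such genes 22 lay above 1 CPM by edgeR. Among the 19 of at least 10 CPM, animals 1 and 4 held the 2 highest values in 7 (Per1, Klf9, Klf15, Mt1, Cdkn1c, Foxo3 and Irs2) and animals 2 and 3 in 4 (Dusp1, Nfkbia, Errfi1 and Foxo1), beside 17.2% and 27.4% of all genes. With TMM scaling these were 9 and 3, beside 24.0% and 20.5%. Klf15, a metabolic transcription factor, had 36.3, 0.163, 5.21 and 31.3 CPM. Its lowest value is under 1 estimated read, so the ratio to it is not given. Tat, tyrosine aminotransferase, had 74.4, 0.891, 30.1 and 22.8 CPM, so that animal 2 was again the lowest. Klf9, named here after its values were seen, had 229, 71.6, 80.9 and 188 CPM. The 2 most abundant genes of the list had narrower ranges, 1.29 for Anxa1, annexin A1, and 1.51 for Zfp36, an mRNA decay factor. Anxa1 averaged 3262 ± 347 CPM and Zfp36 1631 ± 277 CPM. Nfkbia, the inhibitor of NF-kappaB and next in abundance, had 1189, 1638, 1784 and 737 CPM, lowest in animal 4, a range of 2.42. Fam107a had no count.

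Genes that glucocorticoids are known to repress were lower in animals 1 and 4 in most cases. Of 15 such genes 8 lay above 1 CPM, all of them with a mean of at least 10 CPM, and animals 2 and 3 held the 2 highest values in 7 of these 8 beside 27.4% of all genes. With TMM scaling it was 6 of 8, beside 20.5%. Cxcl1, a neutrophil chemokine, had 212, 1043, 499 and 52.3 CPM in animals 1 to 4. Ccl2, which attracts monocytes, had 78.4, 253, 316 and 39.6 CPM. In both chemokines animal 4 was the lowest and animal 1 next. Cxcl10, an interferon-induced chemokine, had 158, 158, 295 and 91.4 CPM, with animals 1 and 2 almost equal. The exception among the 8 was the adhesion gene Icam1. Il1a, Il1b, Tnf and Nos2 had no count.

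**Figure D4:**
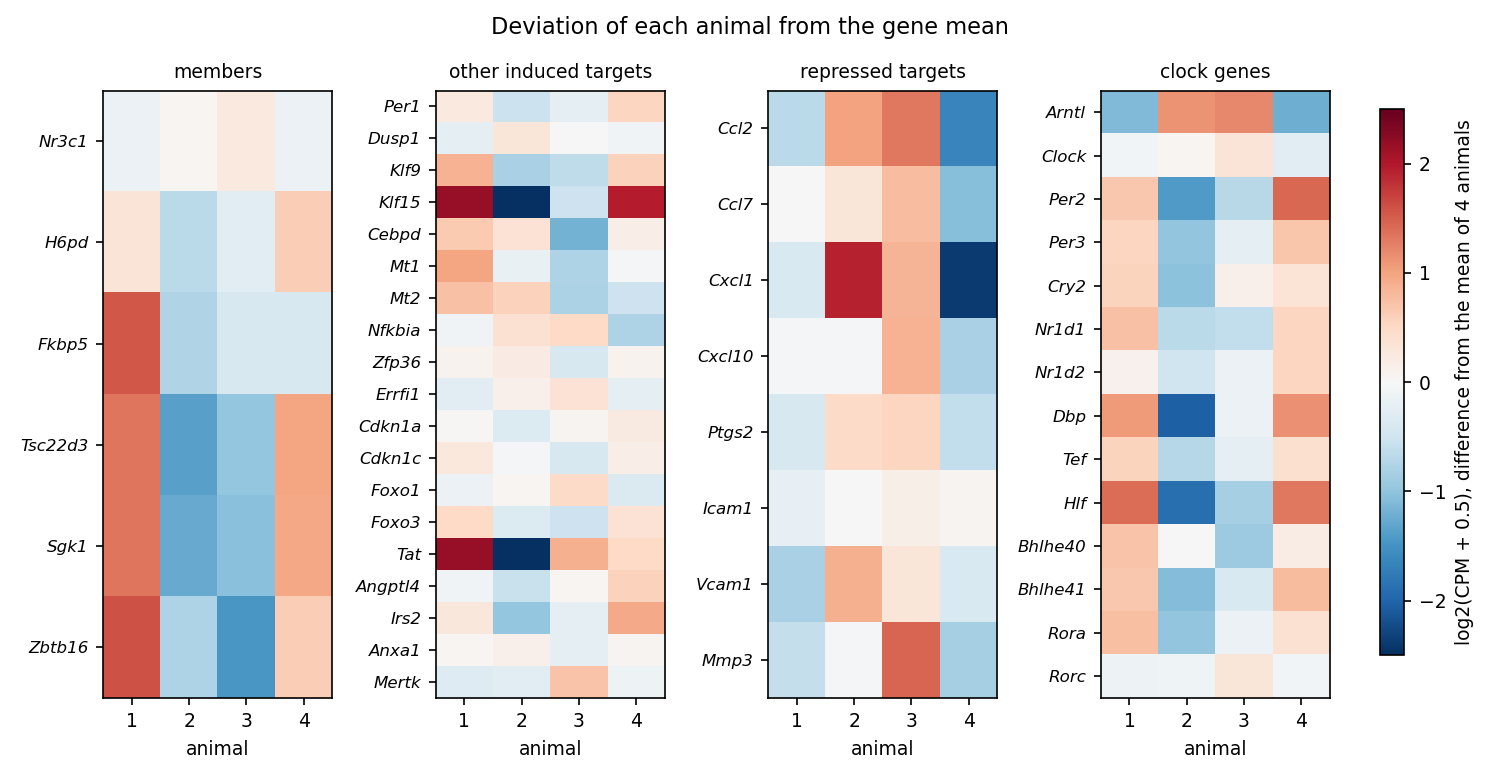
Deviation of each animal from the gene's mean, on the log2(CPM + 0.5) scale, for genes with a mean of at least 10 CPM in 4 lists, 1 row per gene and 1 column per animal. Red is above and blue below the mean, and colours end at 2.5 either way. Tsc22d3, Sgk1 and Zbtb16 are red in animals 1 and 4, as are 11 of the 14 clock genes, whereas Arntl and most repressed targets are blue there.

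Most clock genes were higher in animals 1 and 4. Of 18 clock genes 18 lay above 1 CPM, and animals 1 and 4 held the 2 highest values in 11 of the 14 of at least 10 CPM and animals 2 and 3 in 2, beside 17.2% and 27.4% of all genes. With TMM scaling the counts were again 11 and 2, beside 24.0% and 20.5%. Nr1d1, the repressor REV-ERB alpha, had 510, 194, 202 and 451 CPM. Bhlhe41 had 384, 115, 185 and 421 CPM, and Bhlhe40 209, 127, 67.2 and 145 CPM. In all 3 of these genes animals 1 and 4 were above animals 2 and 3. Ciart, a circadian repressor, had 11.6, 0.724, 2.63 and 17.9 CPM. Hlf, an output factor of the clock, had 39.7, 3.64, 8.09 and 37.9 CPM. Arntl, which encodes BMAL1 and peaks in antiphase to Nr1d1, was named after its values were seen and had 5.17, 26.2, 27.5 and 4.77 CPM, low in the animals in which Nr1d1 was high. The hour of collection is not labelled, and its part in the levels of Tsc22d3, Sgk1 and Zbtb16 was not tested.

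In the list of immediate early and stress genes 19 of 20 lay above 1 CPM. Animals 1 and 4 held the 2 highest values in 4 of 19 genes of at least 10 CPM and animals 2 and 3 in 6, near the 17.2% and 27.4% of all genes. With TMM scaling these were 5 and 4, beside 24.0% and 20.5%. The 4 genes highest in animals 1 and 4 were Fos, Klf6, Btg2 and Nr4a1. Fos had 4744, 4117, 3948 and 5382 CPM, Klf6 2266, 1175, 1195 and 2222 CPM, and the antiproliferative gene Btg2 2221, 1374, 902 and 2055 CPM. Nr4a1, an orphan nuclear receptor, had 890, 161, 168 and 462 CPM. The 6 genes highest in animals 2 and 3, named after their values were seen, were Fosb, Jund, Ier3, Klf4, Hspa1a and Hspa1b. The heat shock gene Hspa1a had 67.3, 292, 189.7 and 105 CPM in animals 1 to 4, and reads can be shared with its near-identical copy Hspa1b, at 14.4, 54.3, 60.4 and 20.8 CPM. The AP-1 subunit gene Jund had 64.6, 121, 118 and 74.2 CPM. Egr2 had 35.0, 4.21, 7.91 and 7.67 CPM, the same single high animal as Fkbp5. The digestion before the sort was the same for all animals per the labels, and the part of isolation stress in these values was not tested. Summed fibroblast markers were 15100, 22467, 19829 and 14828 CPM, lower in animals 1 and 4. Most of each sum was Dcn, at 10961, 15498, 13707 and 11391 CPM. Of the 8 fibroblast markers of at least 10 CPM, animals 2 and 3 held the 2 highest values in 5. Animals 1 and 4 did so in 1, Thy1, beside 27.4% and 17.2% of all genes. The 12 mesothelial markers summed to 16720, 17934, 16000.5 and 16634 CPM. Macrophage markers summed to 91.0 to 116 CPM, mostly Cd14 and Csf1r, with Itgam and Aif1 at 0. Adipocyte markers summed to 39.0 to 66.9 CPM, mostly Lipe, Lpl and Fabp4, with Adipoq at 0. Endothelial markers summed to 35.6 to 69.6 CPM, mostly Kdr, with Cdh5 at 0. Smooth muscle markers summed to 158 to 285 CPM, mostly Acta2 and Smtn, with Lmod1 at 0. In RNA from sorted bulk cells, fewer cells of a type and less RNA per cell cannot be told apart. The part of these markers in the spread of the members was not tested.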

How the data were processed

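RNA depleted of ribosomal RNA was sequenced from sorted mesothelial cells of 4 mice. The authors deposited estimated counts per gene, not scaled, 1 column per animal; at least 99.7% of nonzero values per library were not whole. Tools listed in the submitters' processing notes, with no role stated, are limma 3.38.3, edgeR 3.24.3 and kallisto 0.43.1, with the build GRCm38.p5; how transcripts were summed to genes is not stated there. Estimated counts grow with transcript length and depend on how reads were split between similar transcripts. At 95% identity over 200 bases, no other gene matched a member's transcripts.

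CPM are estimated counts over the column sum. Levels were tested against 1 CPM with edgeR 4.0.16 under R 4.3.3 on counts rounded to whole numbers with TMM scaling: quasi-likelihood, one-sided, Benjamini-Hochberg adjustment over 48425 genes, threshold 0.05. The statistic was computed from fitted and null deviances and tested on simulated data. Sign-flip p-values use the animals alone. Those of edgeR also draw on a variance estimated with information shared over all genes, so they do not measure the spread between animals alone. Per-length levels use the union of exons. Alternatives were limma 3.58.1 with voom weights, DESeq2 1.42.0 size factors, column sums, a filter of 10 counts, other pseudocounts and lengths, and leaving out each animal. Genes outside the 8 were named by level (3 a list), by range (2 a list, mean of at least 5 CPM), by absence of counts and by nearness of profile; exceptions are marked. Members, lists and rules were chosen with earlier results of these data known. 2 genes of the lists as first drawn up are not reported here and are left out of the list counts.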

Additional observations from a re-analysis of the deposited data

Results flagged for a closer look

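In 4 of 58 named genes 1 animal stood far from the other 3, by the gap to its nearest neighbour over the whole range. In 3 of them it was animal 1. The 58 include genes without a count in any animal, such as Hsd11b2 and Pgr, which could not be flagged. Chance flags about 1 in 20 genes that were not chosen by their values. That rate does not hold for these genes, of which 4 are members chosen for their spread and others were named for a wide range or for nearness to a member, so the flags are a description and not a test. Fkbp5 had 51.3 CPM in animal 1, with 0.928 of the range in the gap. Egr2 had 35.0 CPM there, with 0.880, and the transcript 6720489N17Rik 19.5 CPM, with 0.871. Egr2 and 6720489N17Rik were named for their nearness to Fkbp5, so they are not independent of it. In Esr2 it was animal 4, with 0.250 CPM, while the other 3 animals had no count, so the gap is the whole range by construction.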

How the results depend on the processing

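No comparison between groups was possible because the series holds 1 group. The log2 difference of Hsd11b1 and Hsd11b2 changed sign with a pseudocount of 2 CPM (-0.63, exact permutation p = 0.13), where lengths set it, and lay between -0.039 (without animal 1) and 0.72 when each animal was left out. That of Nr3c1 and Nr3c2 stayed positive, from 3.60 with a pseudocount of 2 CPM to 4.31 without division by length. Genes above 1 CPM numbered 11957, and 11559 with voom weights in limma to 12200 with a filter of 10 counts. The size of the adjusted p depended on the method: with voom weights in limma it was 7.24e-07 for Nr3c1 and 3.03e-05 for H6pd. Every count of listed genes above 1 CPM was within 1.5 times its main value in the alternatives run. The highest over lowest ratio of Tsc22d3 was 6.77 with TMM and 6.76 with DESeq2 size factors. With each animal left out in turn it lay between 4.97 and 6.46 for Tsc22d3, 4.73 and 6.06 for Sgk1, 4.43 and 8.74 for Zbtb16, 1.86 and 2.45 for H6pd, and 1.30 and 5.17 for Fkbp5, the lowest being without animal 1 for Fkbp5, Sgk1 and Zbtb16. Without animal 1, Zbtb16 moved by over 1.5 times as well, and without animal 3 it was 5.29. Ratios of Hsd11b1 and Hsd11b2 were not run, since animals at 0 give none. The counts of which animals were highest, and their alternatives, were chosen after seeing the data. Depth limits the low genes: Hsd11b1 and Hsd11b2 rest on 19.6 and 0 estimated counts.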
